A study of Mus musculus with 32 samples.

Results

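Brain arteries of TgNotch3R169C mice, a model of the inherited small vessel disease CADASIL, were compared with those of WT mice at 12 months of age. The comparison took the 8 libraries of each genotype named by their labels, 16 of the 32 libraries measured, and it covered the 17731 genes, of 55357 in the table, that passed a filter on low counts. TgNotch3R169C mice carry a phage P1-derived artificial chromosome with rat Notch3 that encodes the R169C change, integrated on the X chromosome, in addition to their own mouse Notch3. WT mice are labelled non-Tg, both groups are labelled as untreated, and the line was backcrossed to C57BL/6. The model is a single transgenic line, and each mouse gave 1 library. The other 16 libraries came from Notch3-/- and Notch3+/+ mice aged 3 months, a separate line, and they are used only where the text says so. The question that the study put to the 12-month samples was whether genes that depend on Notch3 are altered by the mutant transgene. The results below cover all genes, together with marker genes of the kinds of cell in and around the arteries.

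CADASIL is caused by dominant mutations in NOTCH3, a receptor found mainly on smooth muscle cells and pericytes, and mutant receptor collects around these cells. The artery wall is built from an endothelial lining, layers of smooth muscle that contract around elastic fibres, and an outer coat of fibroblasts and matrix. Elastic fibres consist of elastin laid on microfibrils of fibrillin and joined by lysyl oxidases. Cells make cholesterol through a chain of enzymes whose genes are switched on together by the transcription factor SREBP2 when sterol in the cell is low. Arteries taken from the brain surface lie close to brain tissue, meninges and the choroid plexus, the epithelium that makes cerebrospinal fluid and is the main site of Ttr transcription in the brain.

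In TgNotch3R169C arteries 20 genes changed (edgeR's quasi-likelihood test, Benjamini-Hochberg adjusted p below 0.05), of which 18 rose and 2 fell. The called genes are 0.113% of those tested, and those that fell are 0.0113%. Of the 20, 18 are described here. They fell into a few kinds: Notch3 itself with Gm30232, a locus similar in sequence; proteins of the elastic fibre and matrix (Eln, Adamtsl2, Ntn4); lipid synthesis and handling (Sqle, Msmo1, Srebf2, Acaca, Abca1, Plin4); and genes for cell contact, hormone conversion and signalling (Gja5, Cdh13, Fblim1, F2rl1, Dio2, Chp2), besides Itih2. The 2 groups of 8 did not overlap for 13 of the 18. Over all genes tested, 0.124% had groups that did not overlap. The sizes were modest, with log2 fold changes (given as log2 changes below) between 0.21 and 0.60 for all of the 16 described genes that rose but Gm30232, Notch3, Adamtsl2 and Dio2. The median log2 fold change of all genes was -0.0074. When each library was left out in turn, 7 of the 18 were called in all 16 fits (Gm30232, Adamtsl2, Notch3, Dio2, Sqle, Ntn4 and Eln), while Itih2 was called in 3 of them, Acaca and Cdh13 in 4 and Msmo1 in 5. Members of gene lists that are named besides the called ones and the 2 of smallest p in a list were chosen as examples after their values were seen.

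**Figure D1:**
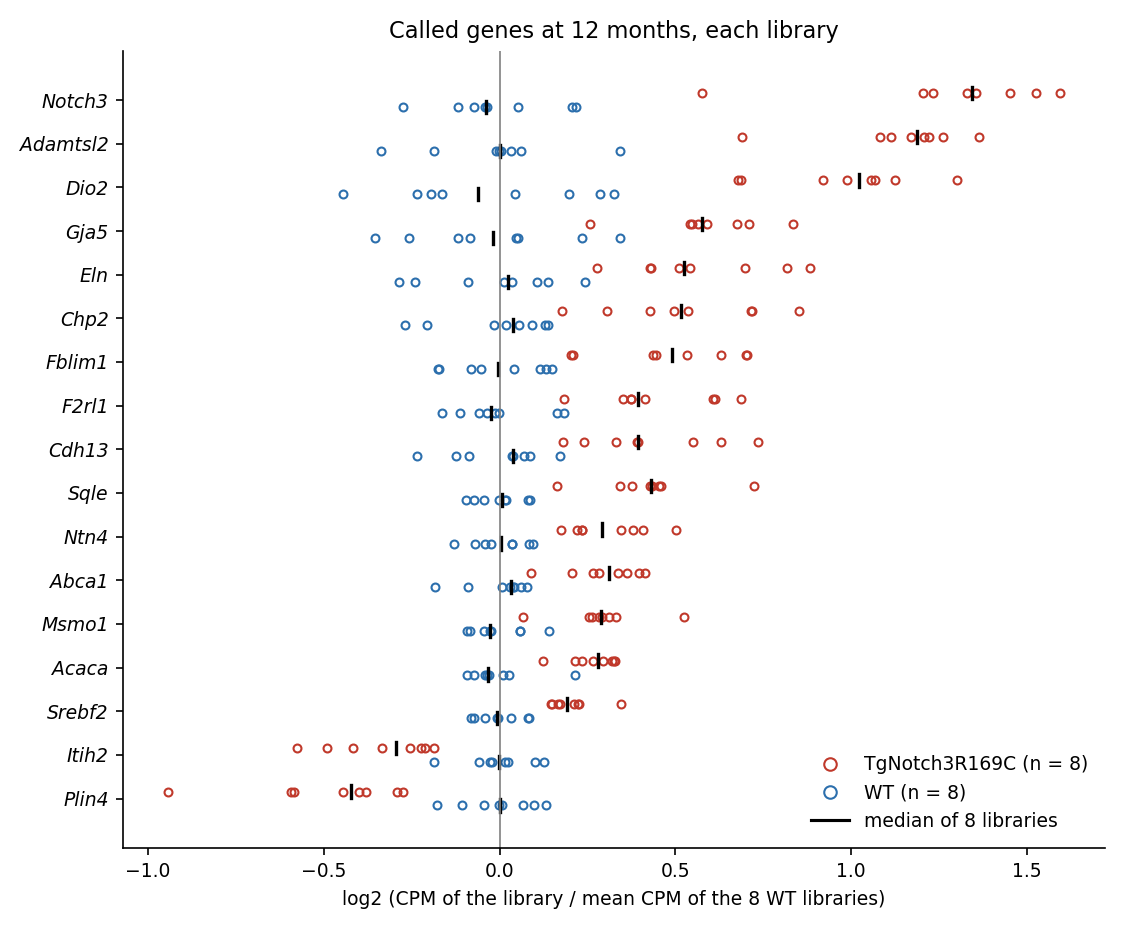
CPM (counts scaled to a common library size by edgeR) of 17 called genes in each of the 16 libraries, as log2 of the ratio to the mean of the 8 WT libraries, with TgNotch3R169C in red, WT in blue and the median of each group as a black bar. Gm30232 is left out because its change lies beyond the axis. Notch3, Adamtsl2 and Dio2 stand apart from the other genes, and Gja5, F2rl1, Acaca, Msmo1 and Itih2 have groups that overlap.

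Depth, as the total count of a library, was 24581846 to 40746284 in TgNotch3R169C and 20289487 to 48829159 in WT mice. Replicates are separate mice. The tissue carried the markers of an artery: all 12 smooth muscle markers were detected, and Acta2, the smooth muscle actin, was at 386 ± 58.9 CPM (SD, n = 8) in TgNotch3R169C and 457 ± 64.2 CPM in WT mice. It also carried RNA of other tissue. Ttr was above 1000 CPM in 2 TgNotch3R169C and 4 WT libraries and below that level in the other 10. In 2 WT libraries, replicates 5 and 6, Prl, the pituitary hormone prolactin, was at 452 and 465 CPM, where no other library of the 16 was above 3.64. Xist, the transcript of the inactive X chromosome of female cells, was at most 2.21 CPM in replicates 1 to 4 of both groups and at least 1433 CPM in replicates 5 to 8, so that both groups hold 4 libraries of each class.

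Notch3 is the gene that the transgene carries, and its reads check the labels. It was counted at 109.6, 187 and 222 CPM (lowest, median and highest) in TgNotch3R169C and at 60.8, 71.6 and 85.5 CPM in WT libraries. Every TgNotch3R169C library was above every WT library, and the lowest, replicate 3, stood well below the other 7. The log2 fold change was 1.31 (SE 0.115, 95% CI 1.07 to 1.56, edgeR adjusted p = 1.75e-05). Reads of rat Notch3 that align to the mouse gene enter this count, so reads of the transgene and of the endogenous gene cannot be told apart in it.

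Gm30232, annotated as a transcribed pseudogene on chromosome 10, had the highest fold change of the called genes. It was at 1.63, 4.21 and 4.98 CPM in TgNotch3R169C and at 0.0442, 0.188 and 0.389 CPM in WT libraries, with a log2 change of 4.39 (SE 0.342, adjusted p = 8.99e-06). The groups did not overlap, and replicate 3 was the lowest TgNotch3R169C library, as for Notch3. The longest run of bases that transcripts Gm30232-202 and Notch3-201 (GENCODE vM21) share without a difference is 56 bases long, in exon 27 of Notch3 and inside its coding sequence, and it is shown because reads within it fit both genes:
Gm30232 and Notch3: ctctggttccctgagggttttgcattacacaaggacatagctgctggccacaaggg
It lies at bases 1161 to 1216 of Gm30232-202 and 5082 to 5137 of Notch3-201. The reads assigned to Gm30232 are therefore uncertain.

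Notch3 was the 1 gene of the Notch pathway that was called, where 0.102% of all genes were called higher. Of 18 receptors, ligands and effectors of the pathway, 16 were higher in TgNotch3R169C than in WT arteries (47.0% of all genes were higher). Notch4, the endothelial receptor, had a log2 change of 0.26 (SE 0.0617, adjusted p = 0.201), and it passed DESeq2's test (adjusted p = 0.034). Heyl, a transcriptional effector of Notch in smooth muscle, had 0.31 (SE 0.138, adjusted p = 0.679), and Hey1 had 0.20 (SE 0.0799, adjusted p = 0.637). Notch2 had -0.11 (SE 0.0461, adjusted p = 0.669). Of the 11 genes that the study used as readouts of Notch3 activity, 7 were lower, 4 were higher and 0 were called. DESeq2 also called 0 of them, and 5 had an unadjusted p below 0.05, all lower, where 3.27% of all genes did. Of 12 smooth muscle markers, described below, 5 were lower at that level too. Whether the 11 genes moved apart from smooth muscle RNA in general was not tested. The study took the 11 as known targets of the receptor. The 2 with the smallest p were Xirp1, at -0.41 (SE 0.107, adjusted p = 0.299), and Tbx2, at -0.30 (SE 0.107, adjusted p = 0.611). Susd5, Pln and Sorbs2 had log2 fold changes of -0.34, -0.28 and -0.17, and S1pr3 and Pgam2 of -0.03 and -0.02. On the higher side, Nrip2, Angpt4, Grip2 and Cdh6 had 0.16, 0.25, 0.27 and 0.32, with edgeR adjusted p between 0.741 and 0.893.

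Genes of cholesterol synthesis were higher together. Of 16 genes for the pathway and its regulation, all 16 had a positive log2 fold change, with a median of 0.21 and a range of 0.10 to 0.43. Of these 3 were called, all higher, where 0.102% of all genes were called higher, and 12 had an unadjusted p below 0.05, where 7.27% of all genes did in either direction. The 16 share a known regulator and are not independent of each other. The list was also set with earlier results of these data known and holds the called genes, so these counts are no independent result.

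Sqle, squalene epoxidase, catalyses the first oxygenation of the pathway. It was at 55.7, 67.1 and 82.1 CPM in TgNotch3R169C and at 46.6, 50.0 and 52.9 CPM in WT libraries. The groups did not overlap, and the log2 fold change was 0.43 (SE 0.0595, 95% CI 0.30 to 0.56, adjusted p = 0.00584). Srebf2 encodes SREBP2, the activator of these genes. It was at 252, 260.1 and 289 CPM in TgNotch3R169C and at 215, 227 and 241 CPM in WT libraries, a log2 change of 0.21 (SE 0.0353, adjusted p = 0.0248). No other called gene moved by less. Msmo1, a demethylating oxidase of sterols, rose by 0.30 (SE 0.053, adjusted p = 0.0345). Its groups overlapped, with 7 of 8 TgNotch3R169C libraries above the highest WT library.

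The other 13 members did not pass this test. Nsdhl, which acts beside Msmo1 in the same demethylation, had a log2 change of 0.22 (SE 0.0462, adjusted p = 0.119), Sc5d of 0.17 (SE 0.0363, adjusted p = 0.134) and Fdft1, squalene synthase, of 0.25 (SE 0.0602, adjusted p = 0.21). DESeq2 called these 3 as well as the 3 above, 6 in all, where it called 0.330% of all genes. Cyp51, the demethylase of lanosterol, had 0.32 (SE 0.0822, adjusted p = 0.299). Hmgcs1, the synthase at an early step of the pathway, had 0.20 (SE 0.0765, adjusted p = 0.626). The lowest value in the list was that of Mvk, mevalonate kinase, at 0.10 (SE 0.077, adjusted p = 0.781).

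**Figure D2:**
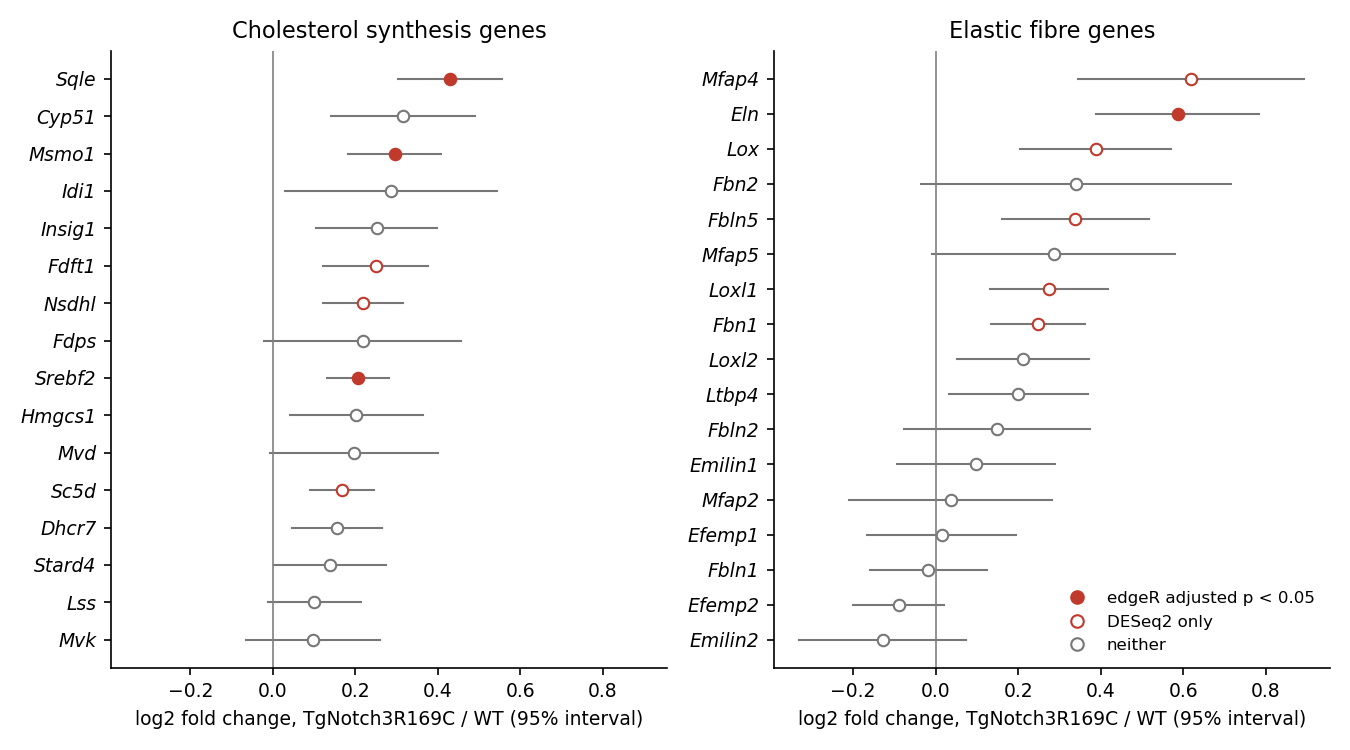
Log2 fold change of TgNotch3R169C against WT (points) with its 95% CI (bars) for 16 genes of cholesterol synthesis (left) and 17 genes of elastic fibres (right). All 16 points on the left lie above 0, with 3 filled for edgeR's call and 3 open red for DESeq2 alone, and 14 of 17 on the right lie above 0, with Eln filled and 5 open red.

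Promoters of these genes show what the members have in common in sequence. RefSeq promoters (GRCm38.p6, from 250 bases before the start of transcription to 50 after) were at hand for 12 of the 16 genes, and for 14 of the 18 called genes described. The pentamer CCAAT, the box bound by NF-Y, was searched on both strands. It stood in a promoter of all 12 genes of the sterol list, of 41.1% of all 27025 genes in the table and of 37.4% of all 32851 promoters. Of the 14 called genes 4 held it (Fblim1, Plin4, Srebf2 and Msmo1). The classical sterol regulatory element, searched as TCACNCCAC on both strands, was found in Hmgcs1 alone among the 12, in 1.44% of all genes and in 1.24% of all promoters. Only exact matches were counted, so its absence by this search does not mean that a promoter lacks a looser form of the element. Promoters of Sqle, Eln, Cdh13 and F2rl1 were not used here. A match of letters is no evidence that a factor binds there. Shown are 150 bases of the promoters of the called genes Msmo1 and Srebf2, and of Hmgcs1 because it holds both motifs, from 180 to 31 bases before the start of transcription, with CCAAT on either strand and TCACNCCAC in capitals.
Msmo1 (chr8:64733609-64733758, minus strand): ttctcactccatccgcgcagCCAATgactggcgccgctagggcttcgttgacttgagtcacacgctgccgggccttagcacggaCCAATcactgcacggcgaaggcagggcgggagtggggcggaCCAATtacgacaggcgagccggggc
Srebf2 (chr15:82147089-82147238, plus strand): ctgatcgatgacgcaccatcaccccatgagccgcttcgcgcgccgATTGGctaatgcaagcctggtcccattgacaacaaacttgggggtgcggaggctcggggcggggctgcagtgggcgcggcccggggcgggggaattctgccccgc
Hmgcs1 (chr13:119690171-119690320, plus strand): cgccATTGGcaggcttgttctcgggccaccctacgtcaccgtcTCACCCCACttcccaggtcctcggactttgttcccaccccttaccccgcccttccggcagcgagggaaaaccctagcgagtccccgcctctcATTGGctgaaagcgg
The boxes of Msmo1 begin 160, 96 and 55 bases before the start, and that of Srebf2 begins 135 bases before it. The sterol regulatory element of Hmgcs1 begins 137 bases before the start, with a CCAAT box on the opposite strand on either side of it.

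Other genes of lipid metabolism moved too. Acaca, acetyl-CoA carboxylase, which makes the building block of fatty acids, rose from a median of 28.3 CPM (27.1 to 33.6) to 35.2 CPM (31.5 to 36.3), a log2 change of 0.27 (SE 0.046, adjusted p = 0.0269). The groups overlapped because 1 WT library, replicate 8, was at 33.6 CPM. Abca1, the transporter that exports cholesterol from cells, rose from a median of 179.8 CPM (154 to 185) to 218 CPM (187 to 234) with no overlap, a log2 change of 0.30 (SE 0.049, adjusted p = 0.0189). Plin4, a coat protein of lipid droplets, fell from a median of 58.7 CPM (51.8 to 64.2) to 43.7 CPM (30.5 to 48.5). Each TgNotch3R169C library was below each WT library, and the log2 fold change was -0.48 (SE 0.0802, adjusted p = 0.0234). The other perilipins tested did not pass: Plin3 had -0.13 (SE 0.0697, adjusted p = 0.703), Plin2 0.03 (SE 0.0782) and Plin5 0.21 (SE 0.25). In the list of 12 perilipin and lipid droplet genes tested, 9 were lower and Plin4 alone was called (0.0113% of all genes were called lower). Of 6 markers of adipocytes, which make much Plin4, 1, Fabp4, passed the filter on low counts, with a log2 change of 1.26, and Lep, leptin, was at 0 in all 16 libraries.

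Several genes of fatty acid handling were called by DESeq2 and missed edgeR's threshold. Acsl3, which activates long-chain fatty acids, had a log2 change of 0.39 (SE 0.0753, adjusted p = 0.0647 with edgeR and 0.00119 with DESeq2). Scd2, a desaturase, had 0.39 (SE 0.0826, adjusted p = 0.121 with edgeR and 0.00375 with DESeq2), and Srebf1, which encodes the activator of fatty acid genes, had 0.37 (SE 0.0843, adjusted p = 0.172 and 0.0145). Lpcat3, an enzyme of membrane phospholipids, had 0.20 (SE 0.0458, adjusted p = 0.18 and 0.0093). Scd2, Srebf1 and Lpcat3 were chosen for the text after their values were seen.

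Mid1ip1 was nearly absent from some TgNotch3R169C libraries and below every WT library in the others, although it was not called in the fit of all 16. Its protein binds acetyl-CoA carboxylase and promotes its assembly into active filaments, and the gene is on the X chromosome (ENSMUSG00000008035). The 4 TgNotch3R169C libraries with little Xist held 2, 12, 0 and 0 reads of it, or 0.0578, 0.285, 0 and 0 CPM. The 4 with high Xist, replicates 5 to 8, were at 32.7, 86.7, 82.6 and 75.7 CPM. The 8 WT libraries ranged from 167 to 228 CPM (median 212), with no difference by Xist to be seen in their ranges. All 8 TgNotch3R169C libraries were below all WT libraries. Mid1ip1 was chosen for the text after its values were seen.

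In the fit of 8 against 8 Mid1ip1 had a log2 change of -2.56 (SE 0.998, 95% CI -4.67 to -0.45, edgeR adjusted p = 0.638) and was not called. Within the 8 libraries with little Xist the log2 fold change was -10.92 (adjusted p = 1.12e-05), and Mid1ip1 was then the single gene called, 0.00560% of those tested. Within the 8 with high Xist it was -1.54 (unadjusted p = 0.000474, adjusted p = 0.714). With the Xist class and the set of libraries by mt-Rnr2 as covariates it was -6.23 (adjusted p = 2.71e-08), where 0.135% of genes were called. That set coincides with the interaction of genotype and Xist class. The value therefore combines the changes within the 2 classes and is no separate result. The interaction of genotype and Xist class was 9.38 on the log2 scale (SE 0.572, adjusted p = 1.51e-06). This interaction was called for 0.0226% of genes, 4 in all, and the other 3 were mt-Rnr1, mt-Rnr2 and Gm13340. These 3 split the libraries in the same way: mt-Rnr2, a mitochondrial ribosomal RNA, was at 1.53 to 2.04 CPM in TgNotch3R169C replicates 1 to 4 and 1.70 to 2.09 CPM in WT replicates 5 to 8, and at 4.10 CPM or more in the other 8 libraries. The 2 sets by mt-Rnr2 and the interaction therefore cannot be told apart. The level of Mid1ip1 itself did not follow these sets in WT libraries, which were above 167 CPM in both.

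The 24 libraries of the other 3 groups, scaled together with these, ranged from 152 to 232 CPM of Mid1ip1, the Notch3-/- libraries included (189 ± 28.4 CPM, SD, n = 8), against 0 to 86.7 CPM in TgNotch3R169C libraries. The nearest genes tested on either side in RefSeq's order, Tspan7 and Bcor, had log2 fold changes of 0.03 (SE 0.126, adjusted p = 0.969) and -0.05 (SE 0.0437, adjusted p = 0.797). The study's methods place the transgene on the same chromosome. Where on it the transgene lies was not analysed here, and a part of that position in the level of Mid1ip1 was not tested.

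**Figure D3:**
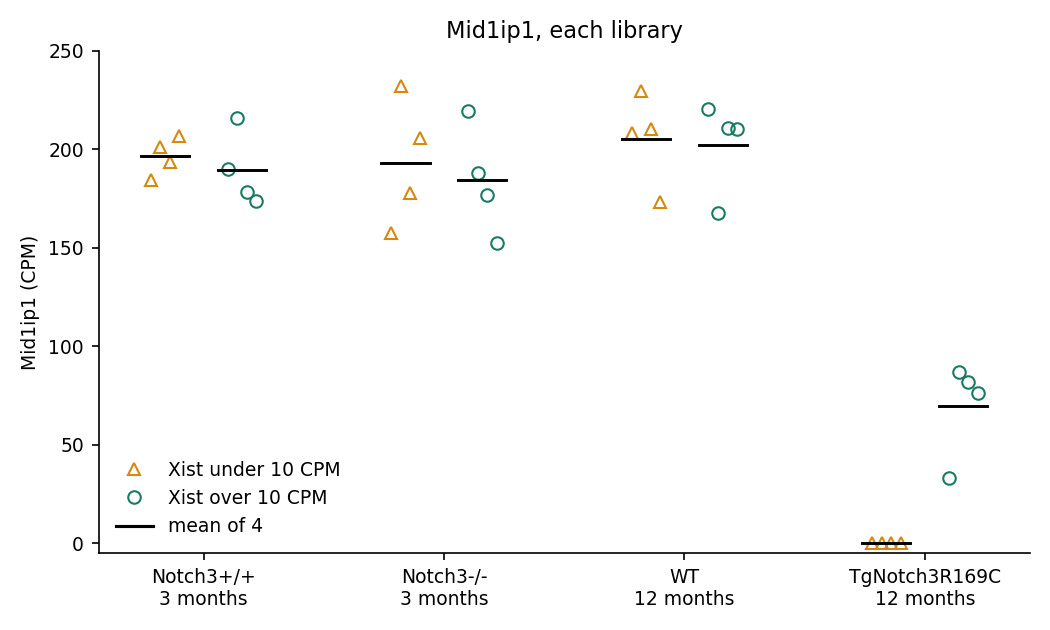
Mid1ip1 in CPM in each of the 32 libraries of the 4 groups, scaled together, with triangles for libraries with Xist under 10 CPM, circles for those over 10 CPM and bars for the mean of 4. The TgNotch3R169C triangles lie at 0 to 0.283 CPM and the circles at 33.4 to 86.7 CPM, and the 24 libraries of the other groups lie at 152 CPM or more.

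The lipid genes were compared between the Xist classes because Mid1ip1 differed so much between them. Within each class the TgNotch3R169C and WT libraries fall wholly into different sets by mt-Rnr2, so that genotype and set cannot be told apart there. The genes were also chosen on these same libraries, which makes their direction within subsets of them no independent result. Within the libraries with little Xist Sqle had a log2 change of 0.46 and within those with high Xist of 0.40. Srebf2 had 0.23 and 0.18, Msmo1 0.32 and 0.27, Acaca 0.27 and 0.26, and Plin4 -0.56 and -0.39. Of the 18 genes described 18 kept their direction in each class with an unadjusted p below 0.05, and none of the 18 was called by the test of the interaction. With 4 against 4 libraries in a class, 0 of the 18 were called among those with little Xist and 2, Adamtsl2 and Notch3, among those with high Xist.

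Elastic fibre and matrix genes formed another group of changes. Eln, which encodes elastin, was at 650.0, 772 and 988 CPM in TgNotch3R169C and at 439.5, 545 and 634 CPM in WT libraries. No libraries overlapped, and the log2 fold change was 0.59 (SE 0.0938, 95% CI 0.39 to 0.79, adjusted p = 0.0189). Of 17 genes of elastic fibre assembly 14 were higher, with a median of 0.21, and Eln was the 1 called (0.102% of all genes were called higher). An unadjusted p below 0.05 was reached by 8 of the 17, all higher, where 7.27% of all genes did in either direction. Mfap4, a microfibril protein that binds elastin, had 0.62 (SE 0.13, adjusted p = 0.112), Fbn1, fibrillin-1, had 0.25 (SE 0.0537, adjusted p = 0.133) with no overlap of the groups, and Lox, lysyl oxidase, had 0.39 (SE 0.087, adjusted p = 0.148). Loxl1 had 0.27 (SE 0.0677, adjusted p = 0.237) and Fbln5, which guides elastin onto microfibrils, had 0.34 (SE 0.0838, adjusted p = 0.237). DESeq2 called these 5 in addition to Eln, where it called 0.330% of all genes it gave an adjusted p. This list too was set with earlier results of these data known, so its counts are no independent result. Fbln1, Efemp2 and Emilin2 were on the lower side, with log2 fold changes of -0.02, -0.09 and -0.13.

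Adamtsl2 encodes a secreted glycoprotein that binds fibrillin and latent TGF-beta binding proteins. It was at 27.6, 39.0 and 44.1 CPM in TgNotch3R169C and at 13.5, 17.1 and 21.7 CPM in WT libraries, a rise of 2.22-fold with no overlap. The log2 fold change was 1.15 (SE 0.0948, 95% CI 0.95 to 1.35, adjusted p = 1.01e-05). It was the 1 gene called among 11 ADAMTS-like and latent TGF-beta binding proteins, of which 7 were higher. Over all genes, 0.102% were called higher. Ltbp2 had 0.67 (SE 0.208, adjusted p = 0.512), while Adamtsl5 and Adamtsl4 had -0.19 and -0.13 and Ltbp1 had -0.06. Of 21 genes of TGF-beta and BMP signalling 13 were higher and 0 were called by either tool.

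Ntn4, a netrin that binds laminin in basement membranes, rose from a median of 61.9 CPM (56.3 to 65.9) to 75.4 CPM (69.5 to 87.2), with no overlap and a log2 change of 0.32 (SE 0.0498, adjusted p = 0.0189). It was the 1 gene called of 16 basement membrane genes, where 0.102% of all genes were called higher. Of the 16, 9 were higher, and their median was 0.02. Col4a1, a chain of collagen IV mutated in another small vessel disease, had groups that did not overlap and a log2 change of 0.35 (SE 0.077, adjusted p = 0.146 with edgeR and 0.00966 with DESeq2). Its partner Col4a2 had 0.28 (SE 0.0771, adjusted p = 0.398). Of 18 collagens 15 were higher, with a median of 0.13, and 0 were called. Bgn, the small proteoglycan biglycan, was first among the genes that missed the threshold, at 0.35 (SE 0.0679, adjusted p = 0.0645). Genes for 10 proteins known from NOTCH3 deposits had a median of 0.02 and 0 called. Htra1 had the smallest p of them, at 0.20 (SE 0.0648, adjusted p = 0.531).

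Dio2 encodes the deiodinase that converts thyroid hormone to its active form. It was at 76.1, 96.7 and 117 CPM in TgNotch3R169C and at 34.9, 45.7 and 59.6 CPM in WT libraries, with no overlap and a log2 change of 0.99 (SE 0.116, 95% CI 0.75 to 1.24, adjusted p = 0.000819). The other 11 genes of thyroid hormone activation, transport and response were not called. Hr, a gene known to respond to thyroid hormone, had 0.24 (SE 0.0847, adjusted p = 0.611), Aldh1a1 had -0.26 (SE 0.0846, adjusted p = 0.531), Klf9 had 0.02 (SE 0.0798) and Dio3, which inactivates the hormone, 0.23 (SE 0.242).

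Genes of cell contact and signalling made up the rest. Gja5, the connexin 40 of arterial endothelium, rose from a median of 21.0 CPM (16.6 to 26.9) to 31.7 CPM (25.4 to 37.8), a log2 change of 0.60 (SE 0.0972, adjusted p = 0.0189), with 7 of 8 TgNotch3R169C libraries above the highest WT library. It was the 1 gene called of 9 connexins and pannexins tested, where 0.102% of all genes were called higher. Gja4, connexin 37, had 0.24 (SE 0.121, adjusted p = 0.687) and Gja1, connexin 43, had 0.09 (SE 0.0703). Cdh13, T-cadherin, a cadherin held to the membrane by a lipid anchor, rose from a median of 49.5 CPM (41.0 to 54.3) to 63.3 CPM (54.7 to 80.2), a log2 change of 0.44 (SE 0.0791, adjusted p = 0.0338). The highest WT and the lowest TgNotch3R169C library were close, at 54.3 and 54.7 CPM. Of 9 cadherins 8 were higher, and Cdh5, the cadherin of endothelium, had 0.03 (SE 0.059).

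Fblim1 encodes migfilin, which links filamin to integrin adhesions, and it rose from a median of 53.1 CPM (47.2 to 59.0) to 74.9 CPM (61.3 to 86.9), a log2 change of 0.49 (SE 0.0804, adjusted p = 0.0189). Of 20 genes of focal adhesion and actin linkage 12 were lower and Fblim1 alone was called (0.102% of all genes were called higher). F2rl1 encodes the protease-activated receptor PAR2. It rose from a median of 11.8 CPM (10.7 to 13.6) to 15.7 CPM (13.6 to 19.3), a log2 change of 0.46 (SE 0.0756, adjusted p = 0.0189). The thrombin receptor F2r had 0.54 (SE 0.109, adjusted p = 0.0989 with edgeR and 0.00171 with DESeq2). Chp2, a calcineurin B homologue that binds sodium-proton exchangers, rose from a median of 15.6 CPM (12.6 to 16.7) to 21.7 CPM (17.2 to 27.5), a log2 change of 0.55 (SE 0.0934, adjusted p = 0.0248), and its homologue Chp1 had -0.08 (SE 0.051). Itih2, a heavy chain that is joined to hyaluronan in matrix, fell from a median of 508 CPM (447 to 556) to 415 CPM (341 to 447), a log2 change of -0.33 (SE 0.0602, adjusted p = 0.0388).

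Smooth muscle markers lay on the lower side without any being called. Of 12 markers 11 were lower, with a median log2 change of -0.21, and 5 had an unadjusted p below 0.05, where 3.27% of all genes were lower at that level. Actg2, the enteric smooth muscle actin, was at 2.88, 4.01 and 5.94 CPM in TgNotch3R169C and at 5.20, 6.66 and 9.06 CPM in WT libraries, a log2 change of -0.71 (SE 0.155, adjusted p = 0.135 with edgeR and 0.00374 with DESeq2). Myh11, the smooth muscle myosin, had -0.29 (SE 0.108, adjusted p = 0.626) and Acta2 had -0.25 (SE 0.101, adjusted p = 0.669). The summed level of the 12 markers ranged from 1356 to 2153 CPM in TgNotch3R169C and from 1658 to 2531 CPM in WT libraries, and the groups overlapped. In these whole arteries fewer cells of a type and less RNA per cell cannot be told apart. Of 16 contraction genes, which share 10 with the markers, 15 were lower and 0 were called by edgeR, while DESeq2 called 1, Actg2. P2rx1, the ATP-gated channel of arterial smooth muscle, had -0.64 (SE 0.159, adjusted p = 0.237 with edgeR and 0.0287 with DESeq2), and of 18 vasoactive receptors 14 were higher with a median of 0.16.

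Of the markers of the other cells of the wall, 1 was called. Of 10 endothelial markers 9 were higher, with a median of 0.10 and 0 called; Pecam1 had 0.26 (SE 0.0881, adjusted p = 0.58) and Cldn5 had 0.05 (SE 0.133). Of 10 arterial endothelial markers 7 were higher, with a median of 0.18, and Gja5 was called (0.102% of all genes were called higher). Sema3g came next at 0.29 (SE 0.0865, adjusted p = 0.47). The 13 fibroblast markers had a median of 0.00 and 0 called, and the 9 pericyte markers had a median of 0.02 and 0 called. Of 7 microglial and 8 border macrophage markers 0 were called, with medians of -0.02 and -0.06.

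**Figure D4:**
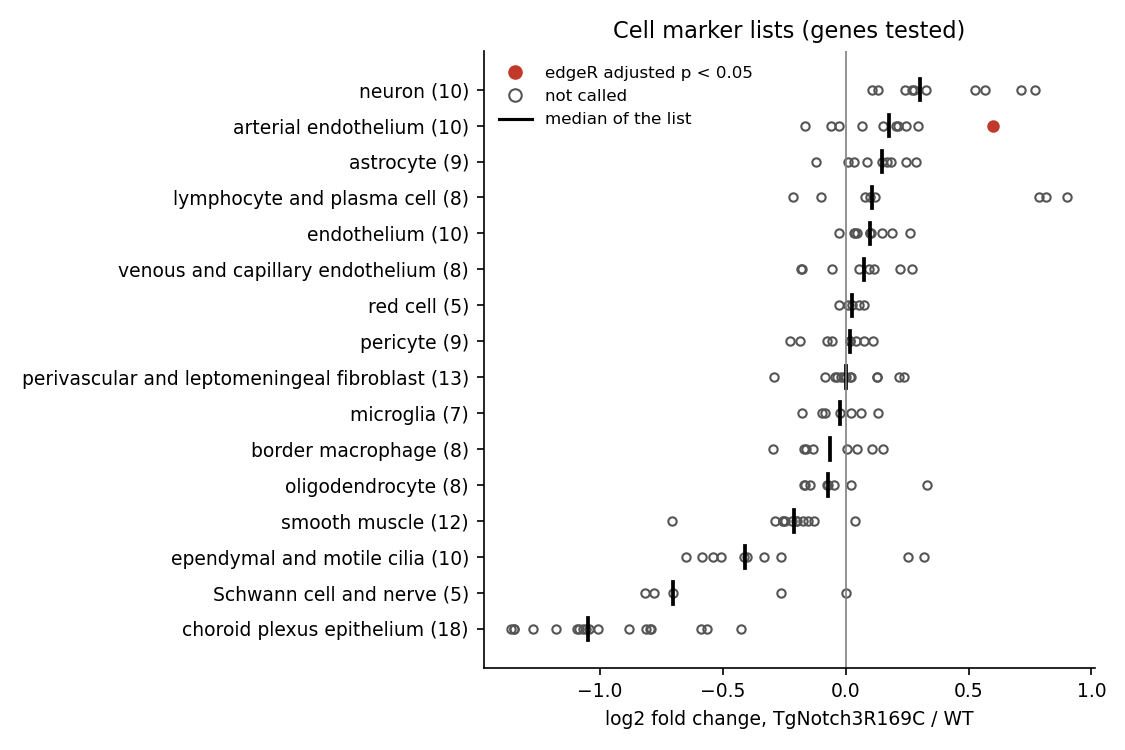
Log2 fold change of TgNotch3R169C against WT for each marker gene of 16 cell types or tissues with at least 5 genes tested, with the number tested in parentheses, the median of each list as a black bar and the called gene, Gja5, in red. The choroid plexus list has the lowest median, at -1.05, and the neuron list the highest, at 0.30, with 0 genes called in either.

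Markers of tissue around the arteries were not called, and their sums overlapped between the groups. All 18 choroid plexus markers were lower in TgNotch3R169C arteries, with a median of -1.05 and 0 called, and their summed level ranged from 649.9 to 22868 CPM in TgNotch3R169C and from 731 to 40791 CPM in WT libraries. None of the 18 was at 0 over the 16 libraries. Ttr itself was at 15.2, 74.5 and 12618 CPM in TgNotch3R169C and at 19.6, 4082 and 23406 CPM in WT libraries, a log2 change of -1.35 (SE 1.54, 95% CI -4.61 to 1.90, adjusted p = 0.855). All 10 neuron markers were higher, with a median of 0.30, 0 called and a summed level of 473 to 1358 CPM against 325 to 935 CPM in WT. Of 9 astrocyte markers 8 were higher, with a median of 0.15, and their summed level was 3235 to 4088 CPM against 3026 to 3817 CPM. Of 10 ependymal markers 8 were lower and of 5 Schwann cell markers 4 were lower, with medians of -0.41 and -0.70 and 0 called in either. The 4 of 8 pituitary markers that passed the filter had a median of -2.75 and 0 called, and Lhb, the beta chain of luteinizing hormone, was at 0. Oligodendrocyte, lymphocyte and red cell markers had medians of -0.07, 0.11 and 0.03, each with 0 called. The part of such tissue in the changed genes was tested only as described next.

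The called genes were examined in the libraries with little and with much Ttr separately. The 10 libraries below 1000 CPM (6 TgNotch3R169C and 4 WT) held between 15.2 and 333 CPM of Ttr, and the 6 above it (2 and 4) held between 7832 and 23406 CPM. All 18 genes kept their direction in both sets. The genes were chosen on these same 16 libraries, so their direction and small p within subsets of them are no independent result. In the set with little Ttr all 18 had an unadjusted p below 0.05, and their log2 fold changes were 0.845 to 1.17 times those in all 16 libraries (median 0.9996). In the set with much Ttr 15 did, with changes of 0.680 to 1.22 times (median 0.919). Gm30232 and Adamtsl2 were called in the first set, and Gm30232 and Notch3 in the second. Eln had 0.58 and 0.49 in the 2 sets, Sqle 0.46 and 0.39, Dio2 0.95 and 0.97, and Gja5 0.63 and 0.50.

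With log2 CPM of Ttr as a covariate 6 of the 20 genes were called, with Gm30232, Adamtsl2, Notch3, Dio2 and Sqle among them, and the log2 fold changes of the 18 were 0.823 to 1.07 times those without it. The adjusted p of the other 13 then lay between 0.0618 (Ntn4 and Cdh13) and 0.101 (Msmo1). The slope on Ttr was called for 6.11% of all genes and for 1 of the 18, Cdh13, at -0.03 log2 units per log2 unit of Ttr (SE 0.00846, adjusted p = 0.0443). The mean of the choroid plexus list in place of Ttr left 16 of the 20. Removing the 18 choroid plexus genes before normalization left all 20.

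**Figure D5:**
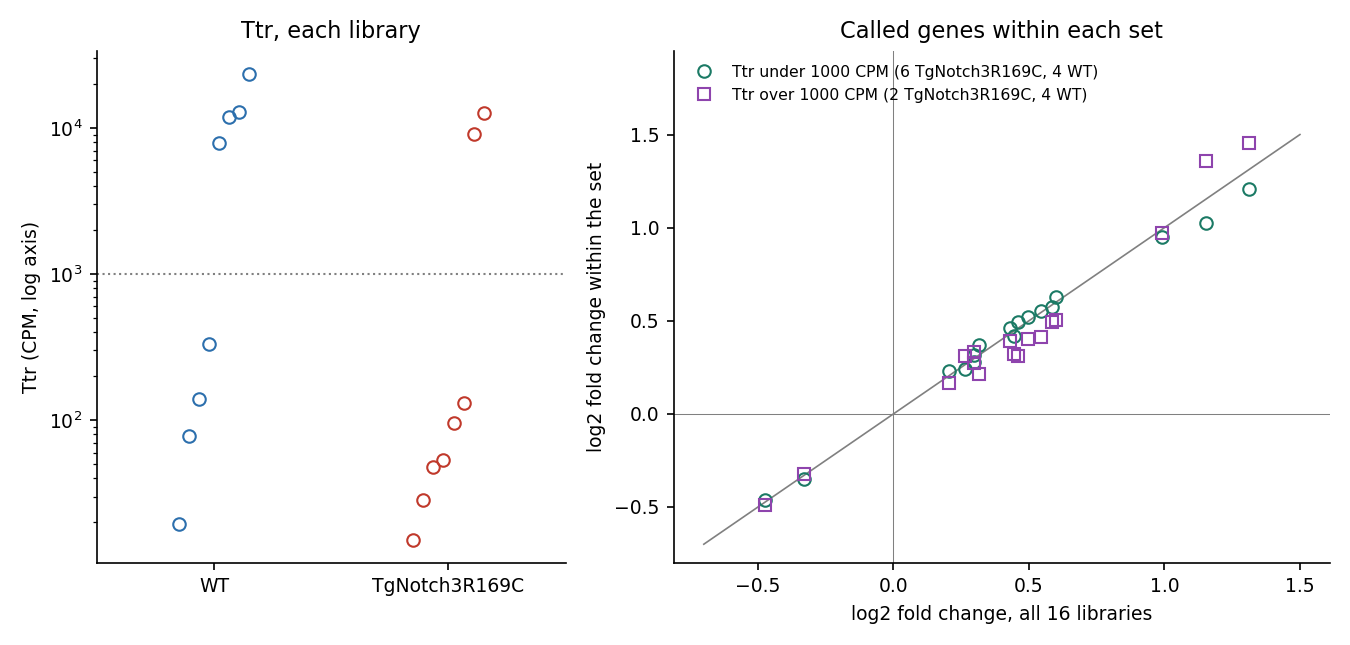
Left, Ttr in CPM on a log axis in each library of the 2 groups, with a dotted line at 1000 CPM. Right, log2 change of 17 called genes within the libraries under and over 1000 CPM of Ttr against that in all 16 libraries, with the line of equality. All 17 points of each set lie on the same side of 0 as in all libraries, which the choice of these genes on the same libraries largely fixes.

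The same was done with other marker lists. With the mean of the astrocyte list as a covariate 5 of the 20 genes were called (Gm30232, Adamtsl2, Notch3, Dio2 and Sqle), with changes of 0.805 to 1.05 times for the 18. The endothelium list left 8, the neuron list 10 and the smooth muscle list 13, while the fibroblast list left 20. All 18 kept their direction and an unadjusted p below 0.05 with each of these, which the choice of the genes on the same libraries favours. A slope of Eln on the endothelium list was called, at 1.16 (SE 0.25, adjusted p = 0.0117), as was that of Chp2, at 0.995 (SE 0.297, adjusted p = 0.0424), where 11.0% of all genes were called. Cdh13 had a slope of 0.66 on the arterial endothelium list (SE 0.191, adjusted p = 0.0391), where 9.96% were called. Its slope on the choroid plexus list was -0.05 (SE 0.0135, adjusted p = 0.0233), where 7.29% were called. No slope of the 18 was called on the smooth muscle list (3.69% of all genes), the neuron list (10%), the astrocyte list (0.0733%), the oligodendrocyte list (0.124%) or the fibroblast list (0.00%). Which cells made the transcripts was not measured in whole arteries.

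The other lists hold few calls. Heat shock genes and chaperones were lower in 12 of 12, with a median of -0.16, and interferon response genes in 15 of 16, with a median of -0.17 (47.0% of all genes were higher). Immediate early genes, which rise within minutes of handling or stimulation, were higher in 14 of 14, with a median of 0.31. None of these 3 lists held a called gene. The summed level of the heat shock list had a higher median in TgNotch3R169C than in WT libraries, at 1730 and 1561 CPM. Its highest library was at 2087 CPM in TgNotch3R169C and at 3644 CPM in WT mice, so the lower fold changes are not a drop across all libraries. Junb had the smallest p of the immediate early genes, at 0.50 (SE 0.159, adjusted p = 0.531), and Cryab that of the heat shock genes, at -0.25 (SE 0.126, adjusted p = 0.693). Of 18 genes of endoplasmic reticulum stress 13 were lower, of 15 of autophagy and lysosome 13 were lower, and of 14 of the p53 response and apoptosis 9 were lower, with 0 called in each. The summed endoplasmic reticulum stress list had medians of 3416 CPM in TgNotch3R169C and 3520 CPM in WT libraries, with maxima of 4604 and 7774 CPM.

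DESeq2 called 74 genes, 0.330% of those it gave an adjusted p, of which 58 were higher and 16 lower, and all 20 of edgeR's were among them. Of the 54 others 49 were tested by edgeR. Those with the highest log2 fold changes were of low count: Chad, a matrix protein of cartilage, had 1.36 (SE 0.329, edgeR adjusted p = 0.216), Slc6a14, an amino acid transporter, had 1.31 (SE 0.286, adjusted p = 0.135), and Htr1d, a serotonin receptor, had 1.03 (SE 0.199, adjusted p = 0.0647), at medians of 7.01, 1.38 and 1.72 CPM in TgNotch3R169C libraries. Ccn5, a matricellular protein of smooth muscle, had 0.76 (SE 0.173, adjusted p = 0.155). Ephx3, an epoxide hydrolase, Nxpe5 and Gm28187 had 0.90, 0.86 and 0.79. On the lower side, Itgb2l had -1.44 (SE 0.315, adjusted p = 0.135) and Gm49542 had -1.04 (SE 0.235, adjusted p = 0.153). Among the genes nearest to edgeR's threshold, Cpxm2, a member of the carboxypeptidase family, had 0.55 (SE 0.109, adjusted p = 0.0729), Itgb5, an integrin beta chain, had 0.22 (SE 0.0453, adjusted p = 0.0971) and Gm14005 had 0.45 (SE 0.0939, adjusted p = 0.112). Asb2, a substrate receptor of a ubiquitin ligase, had -0.47 (SE 0.0966, adjusted p = 0.11). Besides called genes and those given above, Vegfb, Dmpk and Gipc3 had groups that did not overlap, with log2 fold changes of -0.18, -0.18 and 0.33.

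The called genes were then followed in the other groups. In Notch3-/- against Notch3+/+ arteries at 3 months, where 0.649% of genes were called, 19 of the 20 passed the filter on low counts and 2 were called; Gm30232 did not pass it. Notch3 fell, with a log2 change of -2.37 (SE 0.0924, adjusted p = 1.39e-10), and Cdh13 rose, with 0.53 (SE 0.114, adjusted p = 0.0394). Plin4 had -0.44 in Notch3-/- arteries (SE 0.107, adjusted p = 0.0831) and -0.48 in TgNotch3R169C arteries. Dio2 had -0.44 (SE 0.168, adjusted p = 0.473), Gja5 -0.40 (SE 0.233, adjusted p = 0.782) and Eln -0.25 (SE 0.123, adjusted p = 0.661), on the other side from their change in TgNotch3R169C arteries.

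The difference between the 2 changes, tested in a fit of all 4 groups, was called for 10 of the 20 genes, where 0.350% of genes were called. The 20 genes were chosen by their change in TgNotch3R169C, which is part of this difference. A share above that of all genes is therefore largely built in. The difference was 3.68 for Notch3 (SE 0.154, adjusted p = 3.74e-17), 1.43 for Dio2 (SE 0.209, adjusted p = 0.000229), 0.93 for Adamtsl2 (SE 0.161, adjusted p = 0.00223), 0.84 for Eln (SE 0.158, adjusted p = 0.00498) and 0.58 for Sqle (SE 0.128, adjusted p = 0.0288). It was also called for Gm30232, Chp2 and Abca1. For Cdh13 it was -0.09 (SE 0.141, adjusted p = 0.898) and for Plin4 -0.03 (SE 0.137, adjusted p = 0.97). The 2 comparisons also differ in age and in line, which cannot be told apart from the mutation here.

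Between the 2 control groups, WT at 12 months against Notch3+/+ at 3 months, where Gm30232 did not pass the filter either, 5 of 19 genes were called, all lower at 12 months, where 7.92% of all genes were called and 4.05% were called lower. They were Gja5 at -1.16 (SE 0.203), Eln at -0.66 (SE 0.0963), Fblim1 at -0.53 (SE 0.105), Ntn4 at -0.48 (SE 0.0834) and Adamtsl2 at -0.31 (SE 0.0861), with edgeR adjusted p between 0.001 and 0.0352. All 5 were higher in TgNotch3R169C than in WT arteries at 12 months. Both values rest on the same 8 WT libraries, and the control groups differ in line as well as age. RNA of choroid plexus differed between them too. Ttr, scaled over all 32 libraries, was at 75.7 ± 101 CPM (SD, n = 8) in Notch3+/+ mice at 3 months, none above 321 CPM, and at 7046 ± 8520 CPM in WT mice at 12 months, a log2 change of 6.54 (SE 1.37, adjusted p = 0.00959), and its part in the values of these 5 genes was not tested. Scaled over all 32 libraries, Eln was at 839 ± 123 CPM (SD, n = 8) in Notch3+/+ mice at 3 months, at 534 ± 66.2 CPM in WT mice and at 802 ± 111 CPM in TgNotch3R169C mice at 12 months. Gja5 was at 47.1 ± 15.8, 21.1 ± 3.53 and 32.03 ± 3.65 CPM in these 3 groups.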

How the data were processed

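Cerebral arteries were dissected, and stranded poly(A) libraries were sequenced from 8 mice per group. The authors deposited 1 table of read counts per gene for all 32 libraries. Per the labels and the submitters' processing notes, bcl2fastq 2.20.0.422, cutadapt 1.10, Bowtie2 2.2.8, STAR 2.5.3a and HTSeq 0.6.1p1 were used with build mm39. The annotation and the strand setting of the counting are not given in the sources used here. The reference at hand is GRCm38, so genes carry no coordinates of the counts, and promoters and transcripts are those of GRCm38.

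Groups came from the sample labels. Genes were filtered with filterByExpr, TMM scaled the counts, and edgeR 4.0.16 (R 4.3.3) tested them by quasi-likelihood, with Benjamini-Hochberg adjustment over the 17731 genes tested and a call at an adjusted p below 0.05. CPM are TMM-scaled, the SE is the log2 fold change divided by the root of F, and 95% intervals use the t distribution. Of the called genes, 2 are not reported here, and some members were left out of the sterol list. DESeq2 1.42.0, limma 3.58.1 (voom) and sva 3.50.0 gave alternatives, as did other scalings, filters, thresholds, covariates, a replicate block and leaving out each library. The scripts were tested on simulated data.

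The rule for named genes took the called genes, the 10 next by p, Notch3, Ttr, the 10 genes with the greatest change that DESeq2 alone called, the 11 target genes, and the called and 2 most significant members of lists, of which the text names those of some lists. Members and lists were chosen with earlier results of these data known. Mid1ip1, the splits by Ttr, Xist, Prl and mt-Rnr2, and the slopes on marker lists were chosen after seeing the data. Correlations with Ttr were not computed, because its levels fall into 2 clusters of libraries.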

Additional observations from a re-analysis of the deposited data

Results flagged for a closer look

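Among 20 genes examined in both groups of 8 (40 groups of values), the highest or lowest library stood far from the rest in 4, where chance flags about 1 in 20 groups, or 2 of these. In TgNotch3R169C replicate 3, Notch3 was at 110 CPM and the next library at 169 CPM, and Gm30232 was at 1.63 CPM with the next at 3.66 CPM. In TgNotch3R169C replicate 2, Srebf2 was at 289 CPM, above the next at 266 CPM. In WT replicate 8, Acaca was at 33.6 CPM, above the next at 29.5 CPM.

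The change between the genotypes differed between libraries with little and with high Xist for 4 genes, by the test of the interaction. The log2 interaction was 9.38 for Mid1ip1 (edgeR adjusted p = 1.51e-06), 3.54 for mt-Rnr2 (adjusted p = 0.000119), 2.85 for mt-Rnr1 (adjusted p = 0.00969) and 1.28 for Gm13340 (adjusted p = 0.00969). The last 3 divide the 16 libraries into the same 2 sets, which cannot be told apart from the interaction. Mid1ip1 was near 0 in 1 of the 4 combinations of genotype and Xist class alone, with 14 reads in 4 libraries together.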

How the results depend on the processing

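The count of 20 called genes depended on the settings. Over 44 alternatives, 278 of 791 values of the 18 genes described were no longer past the threshold; all 791 kept their sign, which the choice of these genes on the same libraries largely fixes. The count was 74 with DESeq2, 7 with Ttr, 11 with the neuron list, 6 with the astrocyte list and 9 with the endothelium list as a covariate, 4 when tested against a fold change of 1.2 and 5 at an adjusted p below 0.01. Leaving out each library in turn gave 11 to 26 genes, with 11 without WT replicate 3 or 4, 12 without TgNotch3R169C replicate 1 and 13 without WT replicate 7. With the replicate number as a block the count was 6. Same-numbered libraries correlated between -0.317 and 0.418, 4 of 8 above 0.1, and 1 library of the 8 correlated best with its own number. RNA of other tissue varied between libraries, so these correlations cannot decide whether the numbers pair the mice. Replicates 1 to 4 and 5 to 8 did match by Xist class in both groups. Alternatives chosen after seeing the data gave 2 genes within the libraries under 1000 CPM of Ttr, 2 within those over it, 1 within those with Xist under 10 CPM, 2 within those over it, 5 without the 2 libraries with Prl over 100 CPM and 12 with Ttr and Xist as covariates. Fewer libraries enter the first 5 of these fits, and the cause was not tested for the others.

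Of the 20 genes, the 6 called with Ttr as a covariate became 16 with the choroid plexus list and 10 with Ttr and Xist. The log2 fold change of Ttr itself, -1.35, was -2.38 (without TgNotch3R169C replicate 5) to -0.77 (without WT replicate 4) when single libraries were left out and 0.22 with the astrocyte list as a covariate (adjusted p = 1), the only alternative that turned its sign. It was -4.74 with the smooth muscle list, -3.61 with Xist, -3.55 with the Xist class and mt-Rnr2 set, -0.68 with the endothelium list, -0.87 with 1 surrogate variable, -3.01 with the replicate block and -2.42 with limma voom, and -6.94 and -0.17 within the libraries with Xist under and over 10 CPM, and was called in none of these. Ttr took no value from fits that select libraries by Ttr or adjust by Ttr or the choroid plexus list. Of the 20 genes, 12 were called with DESeq2 in the test of the difference against 10 with edgeR, and 5 with either tool in the age comparison. DESeq2 was not run here on the Notch3-/- comparison. The SE of Ttr limits what can be said of choroid plexus RNA between the genotypes, and genes of low count such as Gm30232 rest on few reads in WT libraries.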
